A study of Mus musculus with 12 samples.

Results

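The 2 stages of CD8+ T cell exhaustion were compared here receptor by receptor in mice given an antibody to CD137. The anti-CD137 Tpex library (precursor exhausted cells) was set against the anti-CD137 Tex library (exhausted cells), and each clonotype's cells were counted in both. A clonotype was the nucleotide CDR3 of the T cell receptor beta chain (TRB) with the most unique molecular identifiers (UMIs) in a cell, and only cells in the deposited cell table were used. Members were the clonotypes with at least 10 cells in both libraries together, 155 of 3908 in these libraries and of 50845 in the whole series. They held 991 Tpex and 3639 Tex cells. Defined by TRB and alpha chain (TRA) together, 97 clonotypes met the same rule, with 267 Tpex and 2569 Tex cells.

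All mice were wild-type C57BL/6, and cells came from the spleen. The anti-CD137 group had 5 mice, injected with 10 µg of clone 3H3 on 2 days of each week for 14 days. Sorted CD44hi cells that were PD1+, Slamf6+ and Tim3- gave the Tpex library, and PD1+, Slamf6- and Tim3+ cells gave the Tex library. Libraries from 10 mice given 100 µg of an Ig control (clone HRPN) on the same schedule are used only side by side, as are the PD1- effector (Teff) libraries. Each population has 1 library and no cell is tied to a mouse, so nothing here has a replicate check and no test was run. Intervals are exact 95% binomial intervals and cover counting error only. The sort markers could not be checked, since no values per gene were used here.

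A T cell keeps the TRB that its ancestor assembled from a V, a D and a J segment, with bases trimmed and added at the joints. The CDR3, the loop across these joints, contacts the antigen and serves as a tag of descent, because an identical nucleotide sequence is seldom made more than once. Precursor exhausted cells keep the capacity to divide and give rise to exhausted cells, which carry Tim3 and more inhibitory receptors. The same CDR3 in both sorted populations is therefore read as 1 family of cells present at both stages. Its Tpex to Tex ratio then describes how that family was divided between the sorts. The TRA limits this reading. In 32 of 88 members with at least 2 cells with a TRA in each library, the leading TRA was not the same in both.

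Below are the TRB CDR3s of the 5 largest clonotypes, then of the 3 with the highest and the 3 with the lowest Tpex to Tex ratio, since the ratios turn on them. Clones are numbered by size. Clone 1 is both the largest and among the 3 lowest, and is printed once. Each sequence runs 5′ to 3′ from the conserved cysteine codon to the conserved phenylalanine codon of the J segment. Capitals mark the bases between the germline V and J parts, as matched to GENCODE M21 transcripts.
Clone 1 (TRBV1, TRBJ1-3): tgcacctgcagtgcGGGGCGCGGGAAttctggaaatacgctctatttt
Clone 2 (TRBV17, TRBJ2-4): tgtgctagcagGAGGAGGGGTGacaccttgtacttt
Clone 3 (TRBV31, TRBJ2-2): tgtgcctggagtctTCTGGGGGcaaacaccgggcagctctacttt
Clone 4 (TRBV5, TRBJ1-5): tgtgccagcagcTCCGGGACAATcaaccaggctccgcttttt
Clone 5 (TRBV29, TRBJ1-1): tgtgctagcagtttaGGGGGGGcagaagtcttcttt
Clone 25 (TRBV12-2, TRBJ2-7, high): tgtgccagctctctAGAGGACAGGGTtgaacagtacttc
Clone 34 (TRBV29, TRBJ2-2, high): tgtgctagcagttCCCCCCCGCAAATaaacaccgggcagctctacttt
Clone 99 (TRBV1, TRBJ2-5, high): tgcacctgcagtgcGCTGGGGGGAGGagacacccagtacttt
Clone 12 (TRBV12-2+TRBV13-2, TRBJ2-1, low): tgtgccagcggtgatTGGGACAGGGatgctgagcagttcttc
Clone 37 (TRBV5, TRBJ1-6, low): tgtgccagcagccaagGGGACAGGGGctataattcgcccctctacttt

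The libraries differed in depth. The median UMI count per cell was 1950 in Tpex and 3473 in Tex, and no cell had fewer than 1472 and 1840. A TRB was found in 45.3% of Tpex cells and 59.0% of Tex cells, with a median of 6 and 12 UMIs for that chain. Cells with 2 TRBs made up 17.8% and 3.97% of those with a TRB. The cell lists shared 187 barcodes, 1.42% of Tpex and 1.89% of Tex cells. Of these, 48 had a TRB in both, and 0 had the same one. The part of these gaps in the ratios was not tested.

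Clonotypes did not share 1 Tpex to Tex ratio. Over all members the Tpex share was 21.4% (20.2 to 22.6%), which is 0.272 Tpex cells for each Tex cell and is called the common ratio below. The median share of a clonotype was 20%, with the middle 50% between 3.87 and 43.8%, and shares ran from 0 to 100%. A total of 117 members had cells in both libraries, 30 had no Tpex cell and 8 had no Tex cell. In 36 members Tpex cells were the majority.

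The scatter between clonotypes was far wider than counting gives. Pearson's chi-square against the common share was 12.99 per degree of freedom, where counting alone gives about 1. The SD of the Tpex share over clonotypes was 31.8 percentage points, against 9.92 from counting around the common share. On the log2 scale, with 0.5 added to each count, the ratio had an SD of 2.88, and of 2.58 after the counting variance was subtracted. In 79 members, 51.0%, the exact interval of the share left out the common share, with 43 of them above it and 36 below. By size of the difference, 36 members (23.2%) lay 4-fold or more toward Tpex and 43 (27.7%) 4-fold or more toward Tex. A member with 0 cells in 1 library was past 4-fold by construction, since it had at least 10 cells in the other. The 43 thus hold all 30 members with no Tpex cell, and the 36 all 8 with no Tex cell. The other 13 of the 43 had Tpex cells. The shares of 23.2 and 27.7%, set beside other counts below, include these members.

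The counts past 4-fold also rest on which ratio is called common. Over all cells with a TRB the libraries held 5980 Tpex and 5837 Tex cells, a Tpex share of 50.6%. Members made up 16.6% of those Tpex cells and 62.3% of those Tex cells. Against the ratio of all cells, 15 members lay 4-fold or more toward Tpex and 74 toward Tex. The SD of the log2 ratio does not depend on this choice. In the Ig control, 215 clonotypes met the rule. Their common Tpex share was 36.3% (35.4 to 37.2%), their chi-square 16.0 per degree of freedom and the SD of their log2 ratio 3.04, with 55 past 4-fold toward Tpex and 52 toward Tex. The treatments were not tested against each other.

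**Figure D1:**
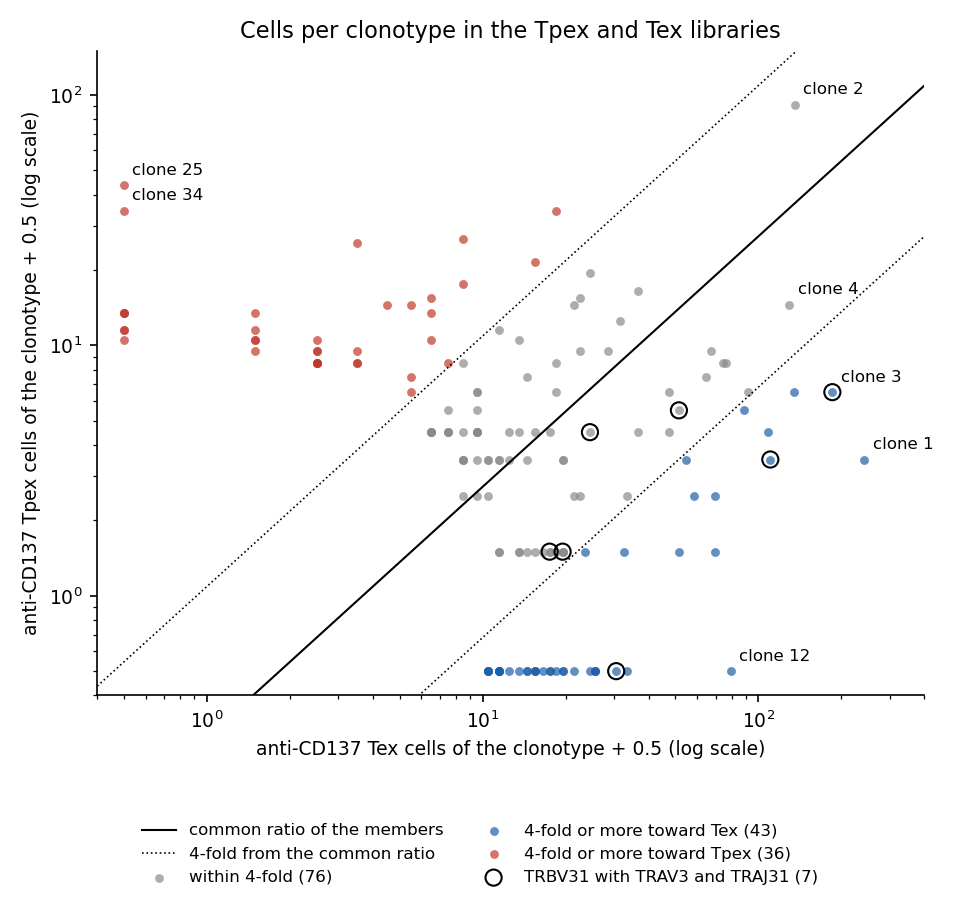
Tex cells (x axis) against Tpex cells (y axis) of each of the 155 clonotypes, 0.5 added to each count, both axes on a log scale. The solid line is the common ratio of 0.272 and the dotted lines lie 4-fold from it. Of the points, 36 lie beyond the upper line and 43 beyond the lower one. Ringed points are the 7 clonotypes that join TRBV31 to TRAV3 and TRAJ31 by their commonest TRA.

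The largest clonotypes were mostly Tex cells. Clone 1 had 3 Tpex and 242 Tex cells, a Tpex share of 1.22% (0.253 to 3.54%), and so a ratio 22.0-fold below the common one. Clone 3 had 6 and 185 cells (3.14%), clone 5 had 6 and 134 (4.29%), clone 6 had 3 and 110 (2.65%) and clone 7 had 4 and 108 (3.57%). All 5 lay more than 4-fold below the common ratio. Clone 9, with 5 and 88 cells, lay 4.79-fold below, at a log2 difference of -2.13 with 0.5 added. Clones 4, 8 and 10 also lay below it, with shares of 9.79, 6.19 and 9.52%, and their log2 differences were between -1.94 and -1.28.

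Clone 2 was the exception among the 10 largest. It had 91 Tpex and 135 Tex cells, a share of 40.3% (33.8 to 47.0%), 2.48-fold above the common ratio. Against the ratio of all cells with a TRB its direction turned, to a log2 difference of -0.60. Its 91 cells are 62.3% of the 146 Tpex cells of the 10 largest clones. It was also found in 11 Teff cells, and of the other 9 clones only clone 10 was, with 8. Its TRB stood at a further 390 Tpex barcodes and 86 Tex barcodes outside the cell table. Paired cells of clone 2 nearly all carried 1 TRA, 46 of 48 in Tpex and 116 of 116 in Tex.

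**Figure D2:**
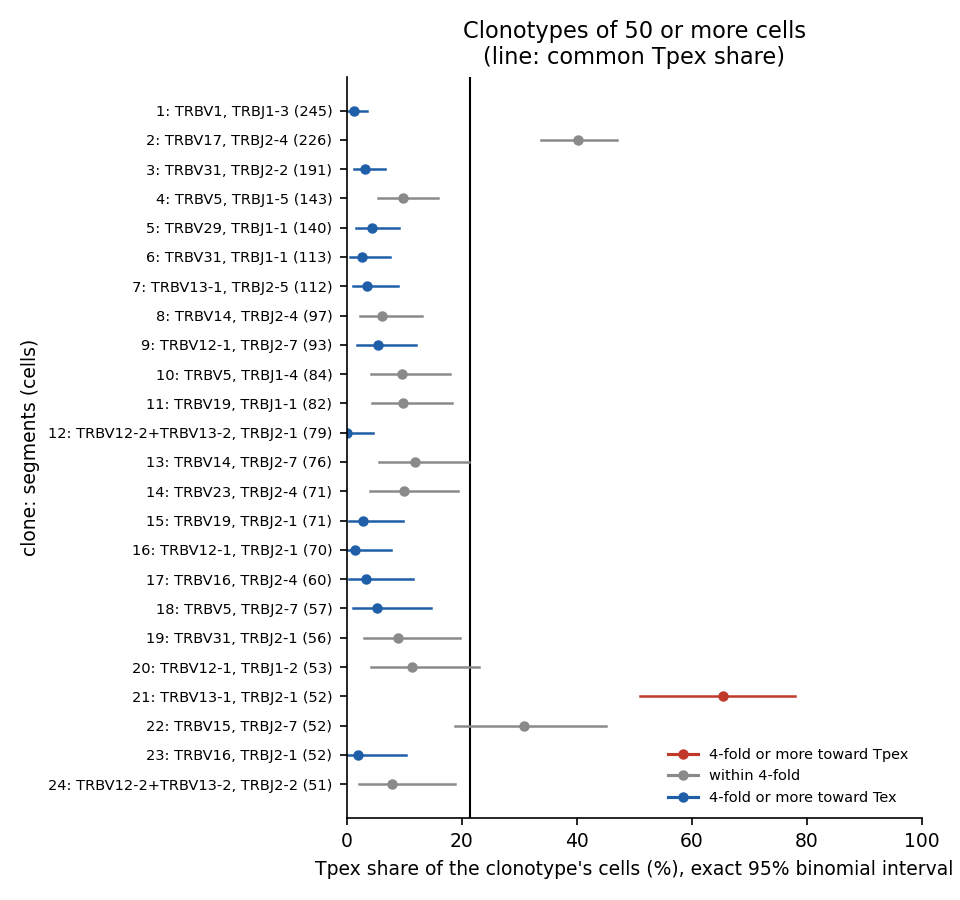
Tpex share (x axis, percent) of the 24 clonotypes with at least 50 cells, ordered by size, with exact 95% binomial intervals. The vertical line is the common share of 21.4%. Points of 21 clonotypes lie left of it, and clone 21, at 65.4%, is the farthest to the right.

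At the high end, clonotypes had Tpex cells and no Tex cell. Clone 25 had 43 Tpex cells and 0 Tex cells. With a floor of 3 cells in place of 0, its ratio was at least 52.6-fold above the common one, while the lower end of the wider, two-sided exact interval lay 41.0-fold above. Clone 34 had 34 and 0 cells, 41.6-fold above by the floor and 32.0-fold by the interval. Clones 99, 100 and 101 had 13 and 0 cells each, 15.9-fold above by the floor and 11.2-fold by the interval. The commonest TRA was carried by 29 of 29 paired Tpex cells of clone 25 and 15 of 16 of clone 34, but by 4 of 6 of clone 99, 7 of 11 of clone 100 and 7 of 8 of clone 101. Outside the cell table clones 25, 34 and 99 had 45, 33 and 8 Tpex barcodes and 0 Tex barcodes. Clone 100 had 6 and 4 there and clone 101 had 14 and 2. Over all barcodes the log2 difference of clone 100 was 2.29 in place of 6.63, and that of clone 101 was 3.63.

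At the low end, clone 12 had 0 Tpex and 79 Tex cells, with an exact interval up to 4.56%. Its ratio was 7.17-fold below the common one by the floor of 3 cells and 5.70-fold by the end of the exact interval. Clones 37, 39 and 44 had 0 Tpex cells and 33, 30 and 25 Tex cells. They lay 3.00-, 2.72- and 2.27-fold below by the floor and 2.30-, 2.08- and 1.71-fold by the interval. Clones 12 and 39 also had 0 Tpex barcodes outside the cell table, against 48 and 13 in Tex. Clones 37 and 44 had 2 and 3 in Tpex, against 6 and 12. Clone 1 is the remaining one of the 5 lowest. Clones 12 and 101 thus lie at opposite ends although both join the segments named TRBV12-2+TRBV13-2 in the deposited table to TRAV16N and TRAJ7, with TRBJ2-1 in clone 12 and TRBJ2-4 in clone 101. Their commonest TRAs, printed here because they are so close, differ at the 2 bases in capitals. The cell counts beside them are those of the TRB. The TRA printed was in 64 of 64 paired Tex cells of clone 12 and 7 of 8 paired Tpex cells of clone 101. The pair was picked out after its values were seen.
Clone 12, TRA (0 Tpex, 79 Tex cells): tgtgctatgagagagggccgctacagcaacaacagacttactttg
Clone 101, TRA (13 Tpex, 0 Tex cells): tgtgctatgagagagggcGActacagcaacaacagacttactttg

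Larger clonotypes had lower Tpex shares. Clonotypes of 10 to 19 cells numbered 93 and had 34.01% Tpex cells (31.4 to 36.7%), and the 38 of 20 to 49 cells had 30.6% (27.9 to 33.5%). The 24 of 50 or more cells had 10.5% (9.27 to 11.8%), or 11.6% without clone 1. In the largest class 12 of 24 lay 4-fold or more toward Tex and 1 toward Tpex, against 22 and 28 of 93 in the smallest. The call toward Tex was not equally open to all sizes. All 22 in the smallest class had 0 Tpex cells, since 1 Tpex cell kept a clonotype of that size within 4-fold on that side. In the largest class 1 of the 12 had 0 Tpex cells. The counts of the classes are therefore not like for like. The correlation of the log2 ratio with total cells was moderate, with a Spearman correlation of -0.351 and a Pearson's r of -0.263 over 155 clonotypes. Without clone 1 they were -0.339 and -0.234. Size and ratio share the Tex count, since members had 3.67 times as many Tex as Tpex cells, and so they are not independent measures.

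Below the limit of 10 cells the shares were higher, and they were level between clonotypes of 2 to 4 cells and single cells. Clonotypes of 5 to 9 cells had 51.4% Tpex cells, those of 2 to 4 cells 75.1% and single cells 74.8%. At the limit itself there was no break, with 45.1% in the 35 clonotypes of 9 cells and 46.0% in the 15 of 10 cells.

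The ratio was then followed by receptor segment, with 14 TRBV and 10 TRBJ segments borne by at least 5 members. Segment positions are those of GENCODE M21 on mm10. By pooled cells, TRBV31 (chr6:41557691-41558452, minus strand) was lowest, with 43 of 509 cells in Tpex, 8.45% (6.18 to 11.2%), over 11 clonotypes. TRBV5 (chr6:41062332-41062803) had 12.1% over 12 and TRBV12-1 (chr6:41113550-41114067) 13.8% over 10. In TRBV5 and TRBV12-1, 6 clonotypes each lay 4-fold or more toward Tex, which is 50 and 60% against 27.7% of all members. Highest were TRBV12-2 (chr6:41118851-41119364) with 52.0% over 9 clonotypes, TRBV15 (chr6:41141188-41141658) with 42.9% over 6 and TRBV29 (chr6:41271394-41271881) with 37.1% over 18. TRBV12-2 had 36.2% without clone 25. All 6 TRBV15 members and 15 of 18 TRBV29 members lay above the common ratio, as did 79 of the 155 members (51.0%). Single large clones weigh on pooled shares. TRBV1, named after its values were seen, had 19.8% over 9 clonotypes and 56.9% without clone 1, the highest median log2 ratio of the 14 segments (2.32) and 5 of 9 members 4-fold or more toward Tpex, against 23.2% of members.

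Among the joining segments, the 5 clonotypes with TRBJ1-6 (chr6:41535554-41535606) had 4.598% Tpex cells, the 11 with TRBJ1-1 (chr6:41533864-41533911) 13.1% and the 5 with TRBJ1-4 (chr6:41534811-41534861) 15.7%. TRBJ2-7 (chr6:41543810-41543856) had 29.0%, TRBJ1-2 (chr6:41534001-41534048) 28.5% and TRBJ2-5 (chr6:41543453-41543501) 27.8%. Without the largest clone of each, TRBJ1-6 had 7.41%, TRBJ1-1 17.2% and TRBJ1-4 22.7%, the last above the common share. TRBJ2-7 then had 32.0%, TRBJ1-2 32.9% and TRBJ2-5 35.2%. The 38 clonotypes of the TRBJ1 cluster had 13.3% (11.6 to 15.2%) and the 117 of the TRBJ2 cluster 24.9% (23.4 to 26.4%). Intervals of pooled cells take the cells of a clone as independent, which they are not.

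Segments left most of the spread in place. The SD of the log2 ratio was 2.92 over clonotypes of the 14 TRBV segments and 2.81 within segments. For the TRBJ segments the SDs were 2.89 and 2.93. By the commonest TRA they were 2.78 and 2.84 for 6 TRAV segments with at least 5 members. For 13 such TRAJ segments they were 3.04 and 2.73, the widest gap of these. Of the 14 TRBV segments, 12 had members 4-fold or more toward both sides, as had 8 of 10 TRBJ segments. Of 31 combinations of TRBV and TRBJ found in at least 2 members, 7 had both. Correlations with the CDR3 itself were near 0. The Spearman correlation was -0.03 with its length, which had a median of 42 bases, and 0.07 with the bases between V and J, which had a median of 11 in the 145 clonotypes where the V part could be matched. The 10 members with TRBV10 were not matched.

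**Figure D3:**
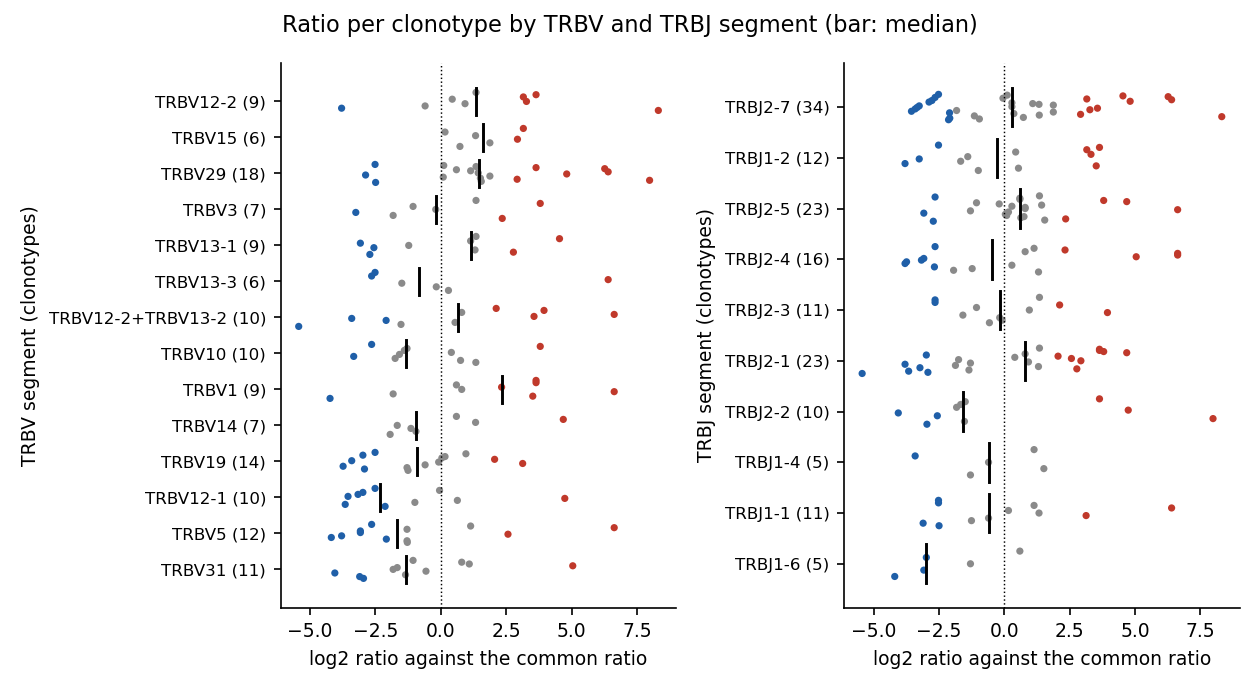
Log2 of each clonotype's Tpex to Tex ratio against the common ratio (x axis, 0.5 added to each count) by TRBV and TRBJ segment with at least 5 clonotypes (y axis, ordered by pooled Tpex share). Colours mark clonotypes 4-fold or more toward Tpex (red) or Tex (blue), and bars are medians. Nearly every segment spreads over both sides of the common ratio, with TRBV15 wholly to the right of it.

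By TRAJ, 12 members whose commonest TRA used TRAJ31 (chr14:54187895-54187951) had 26 Tpex and 551 Tex cells, a share of 4.51% (2.96 to 6.53%). All 12 lay below the common ratio, and 7 of them 4-fold or more, which is 58.3% against 27.7% of members. The 7 members with TRAJ5 (chr14:54213777-54213838) had 56.6% Tpex cells, or 81.2% without clone 24, with 5 of 7 past 4-fold toward Tpex, which is 71.4% against 23.2% of members. TRAJ31 and TRAJ5 were singled out after their values were seen. A low share was not particular to TRAJ31. TRAJ23 had 2.70% and TRAJ6 2.82%, or 6.42% without clone 1, each over 5 members with 3 of them (60%) 4-fold or more toward Tex.

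Within the TRAJ31 members stood a group of like receptors. By the commonest TRA, TRBV31 was joined to TRAV3-3 or TRAV3N-3 and TRAJ31 in 7 members, clones 3, 6, 19, 39, 41, 62 and 71. TRAV3-3 and TRAV3N-3 are near-identical copies, and the same TRA CDR3 was called as either. Together the 7 had 20 Tpex and 436 Tex cells by TRB, a share of 4.39% (2.70 to 6.69%), and each lay below the common ratio, at shares from 0 to 14.3%. Not all of these Tpex cells carried the TRA named. The clone's commonest TRA was in 0 of 2 paired Tpex cells of clone 3, 0 of 3 of clone 19, 1 of 4 of clone 41 and 0 of 1 of clone 71. It was in 2 of 2 of clone 6 and 1 of 1 of clone 62. The other 4 TRBV31 members had 23 and 30 cells, 43.4% (29.8 to 57.7%), or 25.6% (10 of 39 cells) in the 3 without clone 91. The other 5 TRAJ31 members, which lack TRBV31, had 4.96% (1.84 to 10.5%) and also lay below the common ratio, 4 of them 4-fold or more. Clones 3, 6, 41 and 71 had 1 identical TRA CDR3 as their commonest, with different TRBs. Clones 3 and 62 differed at 2 bases of the TRB CDR3 and encode the same amino acids. The CDR3s of the group are printed to show this likeness, and for the TRAs capitals mark bases that differ from that of clone 3.
Clone 3, TRB (6 Tpex, 185 Tex cells): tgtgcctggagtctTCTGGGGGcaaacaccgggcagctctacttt
Clone 62, TRB (1 Tpex, 19 Tex cells): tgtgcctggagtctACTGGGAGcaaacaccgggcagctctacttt
Clone 71, TRB (1 Tpex, 17 Tex cells): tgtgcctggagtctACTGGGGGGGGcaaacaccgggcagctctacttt
Clone 41, TRB (4 Tpex, 24 Tex cells): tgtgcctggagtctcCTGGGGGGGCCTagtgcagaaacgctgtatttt
Clone 6, TRB (3 Tpex, 110 Tex cells): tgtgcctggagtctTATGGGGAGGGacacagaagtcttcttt
Clone 19, TRB (5 Tpex, 51 Tex cells): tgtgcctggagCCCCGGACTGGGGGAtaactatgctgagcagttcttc
Clone 39, TRB (0 Tpex, 30 Tex cells): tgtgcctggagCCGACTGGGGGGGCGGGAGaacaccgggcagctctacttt
Clones 3, 6, 41 and 71, TRA: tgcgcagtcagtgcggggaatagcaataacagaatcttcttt
Clone 62, TRA: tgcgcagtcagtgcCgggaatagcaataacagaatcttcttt
Clone 19, TRA: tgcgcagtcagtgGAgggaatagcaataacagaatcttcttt
Clone 39, TRA: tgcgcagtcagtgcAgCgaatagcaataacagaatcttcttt

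Counted over every clonotype, TRBV31 with TRAV3 and TRAJ31 made up 291 of 4717 paired anti-CD137 Tex cells, 6.17% (5.50 to 6.89%), and 5 of 4471 paired Tpex cells, 0.112% (0.0363 to 0.261%). In the anti-CD137 Teff library it was 4 of 20234. The control Tex library had 0 of 7778, which allows a share of up to 0.0386% by the floor of 3 cells and 0.0474% by the exact interval, and the control Tpex library 1 of 10041. Whether these receptors arose in 1 mouse or in several cannot be told apart here.

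The 2 definitions of a clonotype did not give the same ratios. By TRB plus TRA the common Tpex share over 97 members was 9.41% (8.36 to 10.5%). Chi-square was 9.56 per degree of freedom, and the SD of the log2 ratio was 2.22 and 1.61 after counting variance. Of the 97, 13 (13.4%) lay 4-fold or more toward Tpex and 15 (15.5%) toward Tex. Their order was close to that by TRB alone, with a Spearman correlation of 0.845, and 88 of 97 lay on the same side of the common ratio by both definitions. The 97 pairs came from 92 TRBs, and 63 members by TRB alone were lost. Of those 63, 29 had lain 4-fold or more toward Tpex and 10 toward Tex, which is 46.0 and 15.9% against 23.2 and 27.7% of all members. The lost had a median of 11 cells by TRB, close to the limit of 10. Members toward Tpex had a median of 12 cells and those toward Tex of 19. A TRA was found in 64.5% of members' Tpex cells and 79.6% of their Tex cells. The part of size and missing TRAs in this loss was not tested.

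The 5 largest by both chains were clones 1, 2, 5, 3 and 6. Clone 1 with its TRAV13-2 and TRAJ6 chain had 1 Tpex and 213 Tex cells, and clone 2 with TRAV3N-3 and TRAJ22 had 46 and 116, a share of 28.4%. Clone 5 with TRAV6N-7 and TRAJ26 had 5 and 128, and clone 6 with TRAV3N-3 and TRAJ31 had 2 and 99. Clone 3 with TRAV3-3 and TRAJ31 had 0 and 103. Its 2 paired Tpex cells carried other TRAs. The highest ratios by both chains belonged again to clones 25 and 34, with 29 and 15 Tpex cells and 0 Tex cells.

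Measured against the commonest TRA of a clonotype over both libraries, pairing was looser in the Tpex cells of members than in their Tex cells. Both chains were found in 639 Tpex cells and 2896 Tex cells. With more Tex cells setting the commonest TRA, the Tpex value can be lowered by construction. The commonest TRA of the clonotype was carried by 377 of the 639, 59.0% (55.1 to 62.8%), and by 2747 of the 2896, 94.9% (94.0 to 95.6%). Pooled over cells, the Tpex value was similar in members toward Tpex (59.7%), within 4-fold (57.8%) and toward Tex (65.4% of 26 cells). Clone 2 alone gave 46 of the 175 matching cells within 4-fold. Clone by clone, the Spearman correlation of the log2 ratio with this value was -0.22 over 53 clonotypes, a weak relation toward looser pairing at higher ratios. Of the paired Tpex cells with another TRA, 33.2% had 2 TRBs, against 5.57% of those with the commonest. Their TRB had a median of 6 UMIs, against 8. In 88 members with at least 2 paired cells in each library, the leading TRA was the same in 56 and another in 32. Only 26 cells held the TRBs of 2 members, 10 in Tpex and 16 in Tex. Without the paired cells whose TRA was not the commonest of their clonotype, 123 members were left, with a Tpex share of 15.5% and 21 past 4-fold toward Tpex and 40 toward Tex. The part of loose pairing in a high Tpex share was not tested further.

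**Figure D4:**
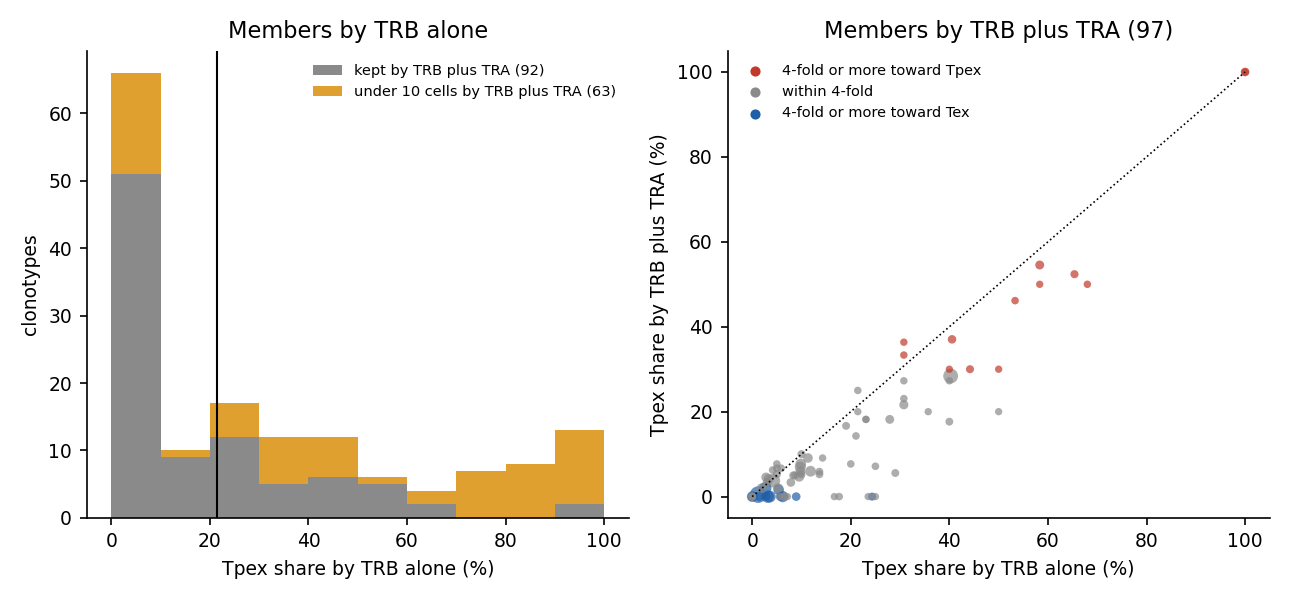
Left, Tpex share by TRB alone (x axis, percent) of the 155 clonotypes, split into the 92 TRBs kept by TRB plus TRA and the 63 lost, with the common share of 21.4% as a line. Right, Tpex share by TRB alone against that by TRB plus TRA for the 97 pairs, with the line of equal shares. Of 32 clonotypes with a share above 60%, 28 are among the lost, and 60 of the 97 pairs lie below the line.

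Cell cycle phase, as the deposited column gives it, was compared among clonotypes within each library. Members had 26.7% of their Tex cells in S or G2M phase (25.2 to 28.1%) and 30.4% of their Tpex cells (27.5 to 33.3%). Clones with at least 10 Tex cells numbered 98 and ranged from 0 to 70.6% in phase S or G2M, with a median of 21.9%. The 32 clones with at least 10 Tpex cells ranged from 0 to 90.9%, with a median of 27.3%. Clone 1, the largest, had 16.9% of its Tex cells in these phases and clone 3 had 40.5%, though both lay toward Tex.

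By these phase calls, pooled over cells, Tex cells of members toward Tex were less often in cycle than those of members within 4-fold. In the Tex library, S or G2M phase took 23.1% (21.2 to 25.1%) of 1784 cells of members 4-fold or more toward Tex and 30.04% (27.9 to 32.3%) of 1731 cells of those within 4-fold. It took 30.6% (22.7 to 39.6%) of the 124 cells of those toward Tpex, with an interval overlapping both others. Without clone 1 the first of these was 24.1%. The median UMI counts of these groups were close, at 3517, 3566 and 3466. The order of the first 2 groups was the same among cells at or below the library's median UMI count (15.2 and 21.0%) and above it (30.5 and 38.2%). Members toward Tpex had 17.2% (8.90 to 28.7%) and 45.0% there, so the order of all 3 held only above the median. Clone by clone the relation was weak and is no finding by itself, with a Spearman correlation of 0.14 for S and G2M together, 0.04 for S and 0.19 for G2M over 98 clonotypes. With the mean deposited S and G2M scores it was 0.0089 and 0.18.

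In the Tpex library the order was alike. S or G2M phase took 35.3% (31.1 to 39.7%) of 496 cells of members toward Tpex, 25.8% (21.9 to 30.1%) of 457 cells of those within 4-fold and 21.1% (9.55 to 37.3%) of 38 cells of those toward Tex. At or below the library's median UMI count the 3 shares were 30.3, 26.3 and 35.0%, so the order did not hold there. Above it they were 38.9, 25.4 and 5.56%, the last from 18 cells. Over 32 clonotypes, the Spearman correlation was 0.29 with the share in S or G2M and 0.33 with the median UMI count of the clone's cells. Of the 11 clones with at least 10 cells in both libraries, 7 had the higher share in Tex. The mean S score was higher in Tex in 6 of the 11, and the mean G2M score in 2. Clone 26 had 5.26% in Tpex and 29.2% in Tex, and clone 2 had 30.8 and 21.5%. Phases of the 2 libraries were called at different depths and were not compared further.

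**Figure D5:**
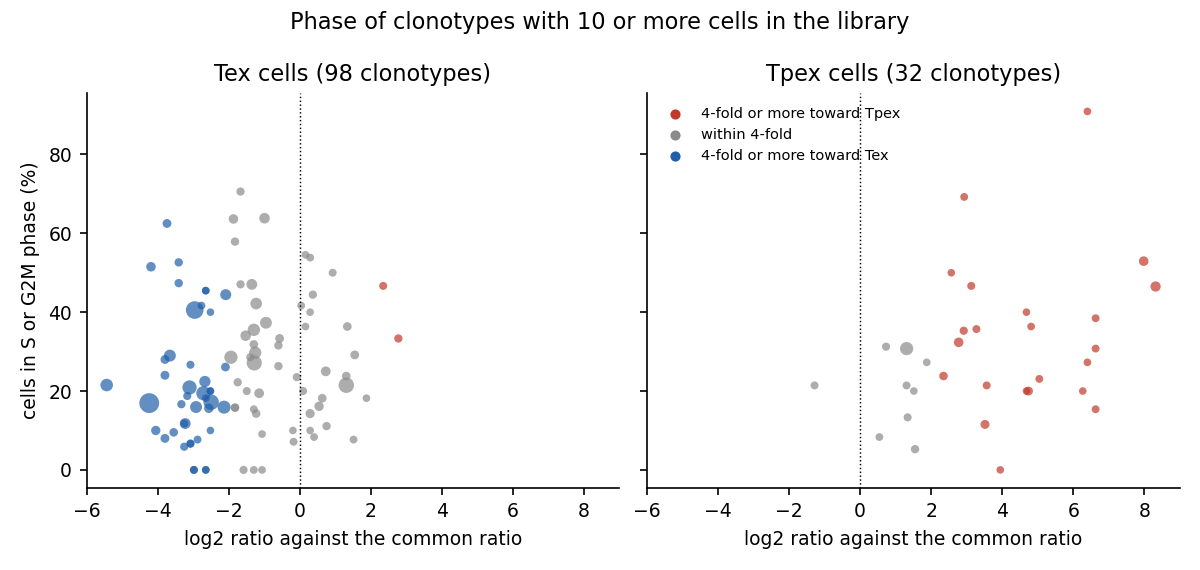
Log2 of the Tpex to Tex ratio against the common ratio (x axis) and cells in S or G2M phase (y axis, percent) for clonotypes with at least 10 cells in the Tex library (left, 98) or the Tpex library (right, 32). Point area grows with the cells of the clonotype, and colours are as in the plot by segment. In Tex the shares run from 0 to 70.6% over the 98 clonotypes, and in Tpex the highest is 90.9%.

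Pooled over cells, the deposited clusters went with the ratio among Tex cells, while clone by clone the relation was weak. Cluster 4, the larger of the 2 Tex clusters, held 84.5% (82.8 to 86.2%) of the Tex cells of members toward Tex, 75.3% (73.2 to 77.3%) of those within 4-fold and 67.7% (58.8 to 75.9%) of those toward Tpex. The order held at or below the median UMI count (95.4, 91.1 and 92.2%) only for the first group against the others, and for all 3 above it (74.3, 61.0 and 41.7%). Over 98 clonotypes the Spearman correlation was -0.22, which is no finding by itself. Among Tpex cells, cluster 5 held 12.7% (9.90 to 16.0%) of cells of members toward Tpex and 9.19% (6.70 to 12.2%) of those within 4-fold, with overlapping intervals.

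Most members were not seen outside the 2 libraries. A total of 36 had cells in the anti-CD137 Teff library, 112 cells in all. Of these members 12 lay 4-fold or more toward Tpex and 5 toward Tex. That is 33.3% of the 36 against 23.2% of members, and 13.9% against 27.7%. Only 6 members were found in the control libraries, in 8 cells.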

How the data were processed

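Single-cell 5′ gene expression and T cell receptor libraries were made for 6 sorted populations, and the anti-CD137 Tpex and Tex libraries are compared here. Tools listed in the submitters' processing notes are Cell Ranger 3.0.2 and Seurat 4.0.0, with mm10 as the build. Treatment of doublets is not stated in these sources, and no caller was run for want of values per gene. The deposited cell table gives each cell's count of UMIs, percent of mitochondrial UMIs, a phase with its cell cycle scores, and a cluster, per the file headers. The deposited receptor table gives each contig's chain, segments, CDR3 and count of UMIs and reads.

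Library and barcode linked contigs to cells. Each cell's TRB and TRA were those with the most UMIs, with ties broken by reads and then by sequence. Ties concerned 125 of 5980 Tpex and 13 of 5837 Tex cells with a TRB. Cell cycle scores were the authors' own and were used with the phase. Germline parts of CDR3s were matched to GENCODE M21 transcripts. A member's TRAV and TRAJ are those of its commonest TRA.

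Ratios had 0.5 added to each count. A clonotype was called past 4-fold at a log2 difference of 2 or more from the common ratio. Intervals are exact Clopper-Pearson 95% intervals, and a count of 0 was set to 3 for bounds. No test was run, since each group has 1 library. The spread statistics were tested on simulated data. The members and lists were chosen with earlier results of these data known. Named clones were the 10 largest, the 5 highest and 5 lowest ratios, and the 5 largest by TRB plus TRA. Named TRBV and TRBJ segments were the 3 highest and 3 lowest pooled shares among segments of at least 5 members. TRAJ segments, the TRBV31 group and the pair of clones 12 and 101 were named after their values were seen. Alternatives varied the definition, the cells, the size limit, the pseudocount, the common ratio and the fold, and 1 was added after seeing the data. Python 3.11.15, numpy 2.4.6, pandas 2.3.3, scipy 1.17.1 and matplotlib 3.10.9 were used.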

Additional observations from a re-analysis of the deposited data

Results flagged for a closer look

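TRBs of members were also found at barcodes that the cell table does not hold and the comparison does not use. In the anti-CD137 Tpex library these were 2057 barcodes, 67.5% (65.8 to 69.1%) of all barcodes with a member's TRB, close to the 66.6% of all barcodes with any TRB there, against 12.5% (11.5 to 13.5%) for control members among control Tpex barcodes. Outside barcodes of the anti-CD137 Tex library numbered 1716, 32.0% (30.8 to 33.3%), close to the 33.6% over any TRB, against 3.00% for control members in the control Tex library. Of the 155 members, 131 had such Tpex barcodes and 140 such Tex barcodes. Among the 30 members with no Tpex cell, 12 had at least 1 Tpex barcode outside the table, 42 in all. Among the 8 with no Tex cell, 3 had a Tex barcode there. What these barcodes hold was not tested.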

How the results depend on the processing

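No paired analysis was possible because each group has 1 library. The wide spread was seen under every alternative run, with an SD of the log2 ratio after counting variance between 1.61 (TRB plus TRA) and 2.74 (all barcodes with a TRB), against 2.58. Of 434 values recomputed, 388 stayed within the set tolerance (for a share, its interval, and for a count or an SD, 1.5 times), 45 moved beyond it and 1 turned sign: clone 2 lay at -0.60 on the log2 scale against the ratio of all cells with a TRB. The 388 include values that could not move, as for the shared barcodes below and, apart from the count, for the 2-fold limit. For a named clone with 0 cells in 1 library the tolerance was open on 1 side. Clone 12, at -5.44 on the log2 scale, thus counted as within it at -7.82 over all barcodes. The level of the ratio did depend on the cells used. The common Tpex share of 21.4% became 9.41% by TRB plus TRA, 18.5% in cells with 1 TRB, 15.7% with at least 5 TRB UMIs, 47.0% over all barcodes, 12.7% in cells of at least the higher of the libraries' lowest UMI counts, 18.05% in phase G1, 29.5% at 5 cells, 16.9% at 20 cells and 15.5% without cells of another TRA. The median share of a clonotype, 20%, became 4.76% by TRB plus TRA, 8.71% with at least 5 TRB UMIs, 63.2% over all barcodes, 7.77% with the UMI limit, 34.5% at 5 cells, 9.64% at 20 cells and 6.67% without cells of another TRA. The 79 clonotypes past 4-fold became 28 of 97 by TRB plus TRA, 234 of 411 over all barcodes, 258 of 418 at 5 cells, 27 of 62 at 20 cells and 121 past 2-fold. With 1 in place of 0.5 added, 36 lay toward Tpex and 30 toward Tex. Over all barcodes 159 lay toward Tpex and 75 toward Tex. For these alternatives the numbers of cells and clonotypes differ by construction. The correlation with size stayed negative, between -0.401 and -0.218, and that with Tex cells in cycle stayed weak, between 0.06 and 0.16. Leaving out barcodes with the same TRB in both libraries changed no value, as there were 0. The relation with cell cycle was not run in phase G1, which has no cycling cells. Leaving out replicates was not run, since each group has 1. Depth limits what a 0 shows: 10 Tex cells and 0 Tpex cells allow a Tpex share of up to 30.8%.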
